A study of Mus musculus with 6 samples.

Results

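The bone morphogenetic protein (BMP) branch of the TGF-β superfamily was read in cardiac fibroblasts of hearts labelled KDM5B knockout and wild-type, as 10 genes chosen by symbol for their place in the pathway, out of the 34745 genes listed in the expression table. They were the ligand genes *Bmp2*, *Bmp4* and *Bmp6*, the receptor genes *Bmpr2* and *Acvrl1*, the co-receptor gene *Eng*, the inhibitory Smad genes *Smad6* and *Smad7*, and the target genes *Id1* and *Id3*. All 10 were found, each in a single row, and 9 had enough counts to be tested.

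The data were 3 RNA-seq libraries labelled KO and 3 labelled WT, made from fibroblasts of the left ventricle on Day 7 after myocardial infarction (MI), which was induced by tying off the left anterior descending coronary artery. All mice were male, 8 to 10 weeks old and operated, so no library comes from an uninjured heart. The knockout was made with CRISPR/Cas9 on a C57BL/6 background and removes bases around the JmjC domain of the histone H3K4 demethylase KDM5B in every cell of the animal rather than in fibroblasts alone, and the WT mice were littermates. Whether each library stands for 1 animal or a pool is not given in the sources used here, so p-values measure the spread between these libraries, which may be technical.

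BMP ligands bind pairs of type I and type II serine/threonine kinase receptors, which phosphorylate SMAD1, SMAD5 and SMAD9. These enter the nucleus with SMAD4 and switch on genes such as the *Id* genes, whose products hold back basic helix-loop-helix transcription factors, and *Smad6* and *Smad7*, whose products damp the pathway. In endothelial cells the receptor ALK1 (*Acvrl1*) and its helper endoglin (*Eng*) carry signals of BMP9 and BMP10, while in fibroblasts BMP signaling is known mostly as a counterweight to TGF-β.

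Library totals ran from 12025403 to 15329427 counts on genes, and replicates varied with a biological coefficient of variation of 10.9%. *Kdm5b* itself had 98.0, 107 and 105 CPM (counts scaled by library size with TMM) in the KO libraries and 108, 128 and 123 in the WT libraries, a log2 fold change (LFC, KO against WT) of -0.22 (SE 0.07, adjusted p = 0.0574 from edgeR). *Kdm5b* was thus still counted in every library labelled KO. The count is 1 total per gene, which does not separate the deleted bases from the rest of the transcript, so the loss of *Kdm5b* was not checked here and KO and WT are used only as the labels give them. The fibroblast label was read against marker lists. The summed level of 12 fibroblast markers was 37791 to 40221 CPM in WT and 26966 to 31446 CPM in KO, and 10 fell past the threshold, none rose and the median LFC was -0.41. Markers of other cells moved as well. The 15 endothelial markers summed to 588 to 593 CPM in WT and 2023 to 2748 CPM in KO, with 13 higher, none lower and a median of 2.55. Cardiomyocyte markers (9 of 10 tested, 6 lower, median -0.41) summed to 859 to 866 CPM in WT and 610 to 683 CPM in KO, macrophage markers (10 of 10 tested, 1 higher, 6 lower, median -0.39) to 1520 to 1627 and 1230 to 1264 CPM, and mural cell markers (7 of 8 tested, 1 higher, 4 lower, median -0.42) to 896 to 917 and 633 to 716 CPM. Neutrophil markers (3 of 6 tested, 2 higher) reached at most 10.1 CPM. The 8 lymphocyte and 6 erythroid markers reached at most 0.900 and 0.300 CPM, with *Cd3e*, *Cd3d*, *Cd3g*, *Ncr1* and *Hbb-bt* at 0 in every library. What part these shifts have in the results that follow was not tested, and in bulk RNA fewer cells of a type cannot be told apart from less RNA per cell.

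Among the 9 tested genes, *Bmp4* and *Id1* rose in the KO libraries and *Bmp6*, *Bmpr2*, *Smad6* and *Smad7* fell (edgeR's quasi-likelihood test, adjusted p under 0.05 over all genes tested). The 2 rises stand beside 17.7% of all 14084 tested genes that were called higher, the 4 falls beside 12.5% called lower, and the 6 together beside 30.2% called in either direction. *Eng*, *Acvrl1* and *Id3* were not called. These directions hold under TMM scaling. Scaling the libraries on the 12 fibroblast markers moves the median of all genes from -0.02 to 0.40. With it *Bmp4* and *Id1* stayed above 0, and *Bmpr2*, *Acvrl1*, *Eng*, *Smad6* and *Id3* turned to above 0. Of the 9, 7 lay below that shifted median. Marker scaling moves all genes by about the same amount, so this place is no separate check. The KO and WT libraries did not overlap in CPM for 7 of the 9, with KO above WT in 2 (24.7% of all genes tested) and below WT in 5 (22.4%), beside 47.0% in either direction. The median LFC of the 9 was -0.22, against -0.02 over all genes tested.

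**Figure D1:**
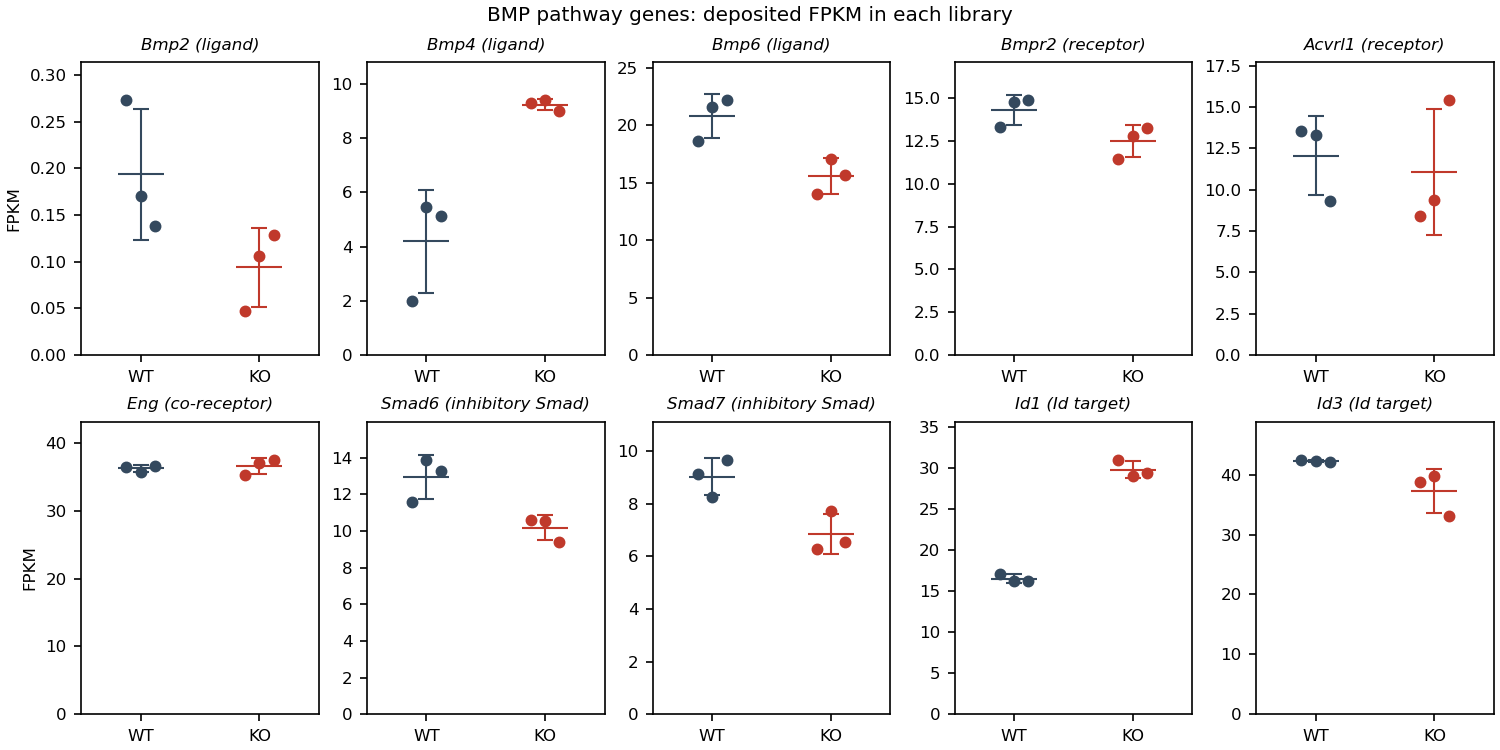
Deposited FPKM (expression scaled by gene length and depth) of the 10 BMP pathway genes on the vertical axis, by label on the horizontal axis, where each point is a library and bars give the mean and SD of 3 libraries. *Bmp4* and *Id1* stand higher in every KO library than in any WT library, *Acvrl1* is spread widely within both labels, and *Eng* stays near 36 in all.

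The table of RefSeq start regions used here (GRCm38.p6) matched 6 of the 10 genes, and 4 of these begin at the same base as the deposited gene. Shown here are the 250 bases before the start of a gene that rose (*Bmp4*), a gene that fell (*Smad6*) and a gene that was not called (*Eng*). A pair of short words recognised by Smad proteins were searched on both strands, GGCGCC, which reads the same on either strand, and CAGAC, which reads GTCTG on the other strand. They share no overlap in these windows, and capitals mark each match.

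*Bmp4*, chr14:46390670-46390919, minus strand: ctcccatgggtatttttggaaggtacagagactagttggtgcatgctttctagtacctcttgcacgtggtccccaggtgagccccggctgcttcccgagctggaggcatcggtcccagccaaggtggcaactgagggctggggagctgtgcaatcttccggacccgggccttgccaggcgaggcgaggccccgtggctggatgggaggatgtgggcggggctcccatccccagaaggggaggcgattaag

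*Smad6*, chr9:64022060-64022309, minus strand: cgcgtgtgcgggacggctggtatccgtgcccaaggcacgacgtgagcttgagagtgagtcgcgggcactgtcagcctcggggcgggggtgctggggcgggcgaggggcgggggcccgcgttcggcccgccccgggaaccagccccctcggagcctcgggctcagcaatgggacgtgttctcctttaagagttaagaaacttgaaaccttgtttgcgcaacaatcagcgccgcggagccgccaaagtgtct

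*Eng*, chr2:32646345-32646594, plus strand: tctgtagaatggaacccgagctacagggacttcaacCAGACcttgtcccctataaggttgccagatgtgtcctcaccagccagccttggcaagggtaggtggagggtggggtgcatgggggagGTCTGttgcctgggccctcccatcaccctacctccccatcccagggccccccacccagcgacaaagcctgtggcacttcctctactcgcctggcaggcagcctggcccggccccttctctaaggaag

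*Eng* held 2 matches of CAGAC, which begin 214 and 127 bases before the start, while the windows of *Bmp4* and *Smad6* held no match of either word. Of the windows not printed, those of *Bmp6*, which fell, and *Id3*, which was not called, held 1 and 2 matches of CAGAC, and that of *Bmpr2*, which fell, held 1 match of GGCGCC, where the windows of *Id3* and *Bmpr2* begin at another base than the deposited gene. The windows of *Bmp6*, *Id3* and *Bmpr2* each lie within an annotated exon of the same gene, so their matches are in exon sequence. CAGAC occurs in 42.2% and GGCGCC in 9.59% of 32851 windows of this length. The windows of *Bmp4*, *Smad6* and *Eng* were 63.2%, 66.8% and 62.4% G and C, with 11, 27 and 4 CG dinucleotides. No methylation or factor binding was measured in these libraries, so the sequences are shown as context and no site is inferred from them.

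The ligand genes differed in level and in direction. In FPKM, which allows comparison between genes because it is taken per length, *Bmp6* was the most abundant of the 3 in every library and *Bmp2* the least. *Bmp4* (ENSMUSG00000021835, chromosome 14 from 46383520 to 46390669 in mm10, minus strand) encodes a secreted ligand of the classical BMP receptors. It had 9.305, 9.399 and 9.001 FPKM in the KO libraries and 2.01, 5.45 and 5.13 FPKM in the WT libraries. All KO libraries were alike and above all WT libraries, and WT replicate 1 was far below the other two. The fitted change was 2.15-fold (LFC 1.10, SE 0.30, adjusted p = 0.0246 from edgeR). Without WT replicate 1 the LFC was 0.77 (adjusted p = 0.00132), and without KO replicate 1, 2 or 3 it was 1.11, 1.09 or 1.13 but missed the threshold (adjusted p = 0.0549, 0.0522 and 0.0588).

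*Bmp6* (ENSMUSG00000039004, chromosome 13 from 38345716 to 38499728, plus strand), a ligand known for its part in iron regulation and in endothelial cells, moved the other way. It had 14.0, 17.1 and 15.7 FPKM in KO and 18.6, 21.6 and 22.2 FPKM in WT. The labels did not overlap, although KO replicate 2 came close to WT replicate 1. Its LFC came to -0.45 ± 0.10 (SE), with an adjusted p of 0.0108, and it stayed below 0 and past the threshold whichever library was dropped. This fall is about the size of the median fall of the fibroblast markers (-0.41). Cardiomyocyte, macrophage and mural cell markers had about the same median (-0.41, -0.39 and -0.42). With the libraries scaled on the fibroblast markers *Bmp6* was at -0.04 (adjusted p = 0.725). Within each library, the log2 ratio of *Bmp6* to *Bmp4* counts was 0.08 ± 0.14 (SD, n = 3) in KO and 1.76 ± 0.67 in WT. The ratio in KO was 0.311 of that in WT, a quantity that no scaling between libraries can alter (p = 0.1 in an exact two-sided permutation test, which cannot go lower with 3 libraries against 3, and adjusted p = 0.2 over 6 ratios).

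*Bmp2* (ENSMUSG00000027358, chromosome 2 from 133552159 to 133562885, plus strand), a close relative of *Bmp4*, was barely counted. It had 2, 5 and 7 counts in KO and 14, 9 and 7 counts in WT, so the labels met at 7 counts, although in CPM every KO library was below the WT libraries. It did not pass the filter on low counts, and 1 KO library lay under the floor of 3 counts. The main fit therefore gave no value for *Bmp2*, and without the filter edgeR gave an LFC of -1.03 with an adjusted p of 0.252. Its log2 ratio to *Bmp4* was -6.67 ± 0.67 (SD, n = 3) in KO and -4.40 ± 1.27 in WT (exact two-sided permutation test, p = 0.1, adjusted p = 0.2 over the 6 ratios), with no more than 14 counts of *Bmp2* behind any library's ratio. The difference of -2.27 was -1.54 without WT replicate 1.

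Among the 15 BMP-type ligand genes read, *Bmp4* made up 7.45 ± 0.46% (SD, n = 3) of the summed FPKM in KO and 2.66 ± 1.17% in WT. *Bmp6* made up 12.5 ± 0.48% and 13.3 ± 0.98%. Most of the remainder came from *Gdf6*, a growth and differentiation factor of the BMP branch known from joint and eye development, with 92.5, 105 and 98.2 FPKM in KO and 131, 131 and 130 FPKM in WT. Every KO library was below every WT library (LFC -0.44, SE 0.05, adjusted p = 0.000677 from edgeR), and scaled on the fibroblast markers the value was -0.03. *Gdf2*, which encodes BMP9, had 7 to 16 counts in KO and 6 to 16 in WT, and *Bmp10* 3 to 11 and 3 to 6, so the ligands of ALK1 and endoglin were at the edge of detection under both labels.

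**Figure D2:**
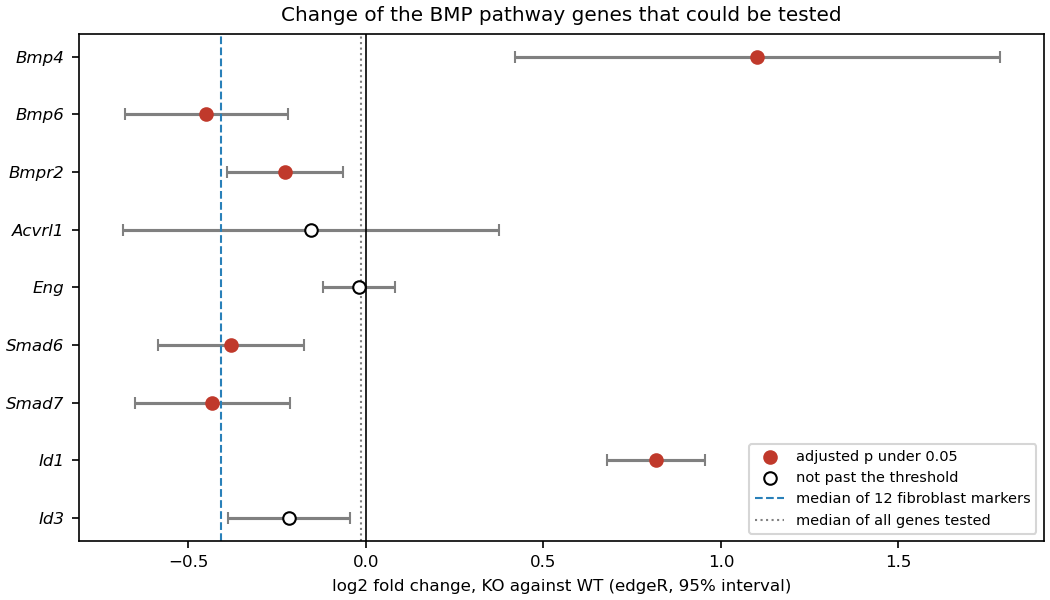
LFC (horizontal axis, KO against WT, log2 scale) of the 9 BMP pathway genes that could be tested, with 95% intervals from edgeR, where filled points passed an adjusted p of 0.05. *Bmp4* and *Id1* lie to the right of 0, the interval of *Eng* is narrow around 0 and that of *Acvrl1* wide, and *Bmp6*, *Smad6* and *Smad7* lie close to the line at the fibroblast marker median, where fibroblast marker scaling would bring them near 0 and turn *Smad6* to 0.03.

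The receptor genes fell slightly or could not be separated. *Bmpr2* (ENSMUSG00000067336, chromosome 1 from 59763400 to 59879014, plus strand) encodes the type II receptor that is mutated in heritable pulmonary arterial hypertension. It had 11.5, 12.8 and 13.3 FPKM in KO and 13.3, 14.8 and 14.9 FPKM in WT. KO replicate 3 and WT replicate 1 all but met. The LFC was -0.23 (SE 0.07, adjusted p = 0.0415), the weakest of the 6 calls. With single libraries dropped it missed the threshold in 4 of 6 fits, those without KO replicate 1 (-0.16, adjusted p = 0.101), KO replicate 2 (-0.24, 0.0632), WT replicate 2 (-0.21, 0.123) and WT replicate 3 (-0.20, 0.122), and over all alternatives the adjusted p ran from 0.0106 to 0.123. The call was also lost when scaling by library size (-0.19, adjusted p = 0.0664) and in the 3 limma fits (adjusted p = 0.0885 to 0.0943). Scaled on the fibroblast markers, the sign turned and the value was 0.18 (adjusted p = 0.0477), below the shifted median of all genes (0.40).

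*Acvrl1* (ENSMUSG00000000530, chromosome 15 from 101128522 to 101145336, plus strand), which encodes the type I receptor ALK1, varied more within labels than between them. It had 8.38, 9.41 and 15.4 FPKM in KO and 13.5, 13.3 and 9.31 FPKM in WT. KO replicate 3 was the highest library of all, WT replicate 3 stood with KO replicates 1 and 2, and the labels overlapped. On the scale of log2(CPM + 0.5) its SD was 0.46 within KO and 0.30 within WT. This was the widest of the 9 tested genes in KO, while in WT the SD of *Bmp4* (0.78) was wider. *Bmp2*, barely counted, is left out of this ranking because the added 0.5 narrows its spread. The LFC was -0.15 with a 95% interval from -0.68 to 0.38 (adjusted p = 0.651), so a change of up to about that size in either direction is compatible with the counts. It was 0.02 without KO replicate 1 and -0.47 without KO replicate 3 (adjusted p = 0.964 and 0.0863), and 0.25 with fibroblast marker scaling.

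*Eng* (ENSMUSG00000026814, chromosome 2 from 32646595 to 32682669, plus strand) encodes endoglin, a co-receptor abundant on endothelial cells and also present on fibroblasts. It was the steadiest gene between the labels, with 35.3, 37.0 and 37.5 FPKM in KO and 36.5, 35.7 and 36.6 FPKM in WT. The libraries of both labels were interleaved. The LFC was -0.02 with a 95% interval from -0.12 to 0.08 (adjusted p = 0.772), which bounds any change under TMM scaling to a narrow range, whereas the endothelial marker list beside it had a median of 2.55. Relative to the fibroblast markers *Eng* was higher (0.39, adjusted p = 0.00033 with marker scaling), which is the median of all genes under that scaling, 0.40. The end of *Eng* overlaps *Fpgs* on the other strand, which had 3376 counts over the 6 libraries against 22439 for *Eng*, and whether counting used strand is not given in the sources used here.

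Within libraries, the ratios of *Acvrl1* to the other receptor genes overlapped between the labels. Its log2 ratio to *Bmpr2* was -1.78 ± 0.38 (SD, n = 3) in KO and -1.82 ± 0.36 in WT, and its ratio to *Eng* was -2.004 ± 0.43 and -1.834 ± 0.32. The differences of 0.04 and -0.17 were smaller than the spread between libraries (exact two-sided permutation test, p = 1 and 0.9).

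The inhibitory Smad genes fell together. SMAD6 blocks mainly the BMP branch, and SMAD7 blocks both the BMP and the TGF-β branch. *Smad6* (ENSMUSG00000036867, chromosome 9 from 63953076 to 64022059, minus strand) had 10.6, 10.6 and 9.40 FPKM in KO and 11.6, 13.9 and 13.3 FPKM in WT. *Smad7* (ENSMUSG00000025880, chromosome 18 from 75367529 to 75395935, plus strand) had 6.26, 7.71 and 6.53 FPKM in KO and 9.12, 8.26 and 9.67 FPKM in WT. For each gene all KO libraries lay below all WT libraries. The LFCs were -0.38 (SE 0.09, adjusted p = 0.0142) for *Smad6* and -0.43 (SE 0.10, adjusted p = 0.0105) for *Smad7*. *Smad7* was past the threshold whichever library was left out, while *Smad6* missed it without KO replicate 3, WT replicate 2 or WT replicate 3 (adjusted p = 0.0557, 0.0526 and 0.0503). With fibroblast marker scaling they were at 0.03 and -0.02, so the sign of *Smad6* turned and neither was called (adjusted p = 0.814 and 0.824). Their ratio to each other did not differ beyond the spread, with a log2 value of -0.55 ± 0.16 (SD, n = 3) in KO and -0.61 ± 0.21 in WT (exact p = 0.6).

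Of the *Id* genes *Id1* rose and *Id3* was not called. *Id1* (ENSMUSG00000042745, chromosome 2 from 152736251 to 152737410, plus strand), the classical immediate target of BMP signaling, had 31.1, 29.1 and 29.4 FPKM in KO and 17.1, 16.3 and 16.2 FPKM in WT. The KO libraries were tightly grouped far above the WT libraries. The change was 1.76-fold (LFC 0.82, SE 0.06, adjusted p = 4.87e-05 from edgeR), and *Id1* was the only one of the 10 genes that kept its direction and its call in every one of the 16 alternative fits, with LFCs from 0.78 to 1.23. At 1.76-fold it does not meet the added demand of a fold above 2, which *Bmp4* alone meets. *Id3* (ENSMUSG00000007872, chromosome 4 from 136143497 to 136145755, plus strand) encodes a protein of the same family and is often induced by the same ligands. It had 38.8, 39.8 and 33.1 FPKM in KO and 42.5, 42.3 and 42.1 FPKM in WT. All KO libraries were below the WT libraries, which were nearly identical. Its LFC of -0.22 (SE 0.07, 95% interval from -0.39 to -0.05) did not pass after adjustment (adjusted p = 0.0601 from edgeR). Over the alternatives the adjusted p ran from 0.0328 to 0.142. *Id3* passed the threshold with upper quartile scaling (-0.26, adjusted p = 0.0328) and without KO replicate 2 (-0.26, adjusted p = 0.0378), while without KO replicate 3 the LFC was -0.13 (adjusted p = 0.142), and with fibroblast marker scaling the sign turned (0.20, adjusted p = 0.0731).

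The ratio of *Id1* to *Id3* within a library needs no scaling. Its log2 value was -0.45, -0.58 and -0.30 in KO and -1.44, -1.51 and -1.51 in WT. The gap of 1.04, or 2.05-fold, was several times the SD within KO (0.14) and within WT (0.04), and the labels did not overlap (exact two-sided permutation test, p = 0.1, adjusted p = 0.2 over the 6 ratios). Of the summed FPKM of *Id1* to *Id4*, *Id1* took 33.0 ± 1.92% (SD, n = 3) in KO and 18.2 ± 0.23% in WT. *Id3* took 41.0 ± 2.16% and 46.5 ± 1.18%, *Id2* 25.4 ± 2.37% and 34.6 ± 1.58%, and *Id4* under 1.1% in each library.

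**Figure D3:**
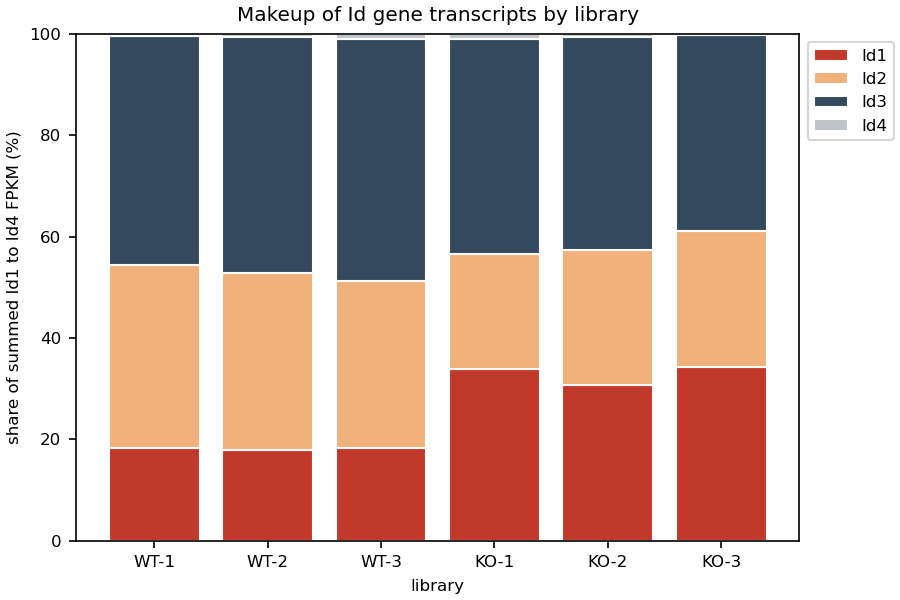
Share of the summed FPKM of *Id1*, *Id2*, *Id3* and *Id4* (vertical axis, percent) in each library (horizontal axis), stacked from *Id1* at the bottom. *Id1* takes 17.9 to 18.4% in the WT libraries and 30.7 to 34.2% in the KO libraries, while *Id2* and *Id3* take less in KO.

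**Figure D4:**
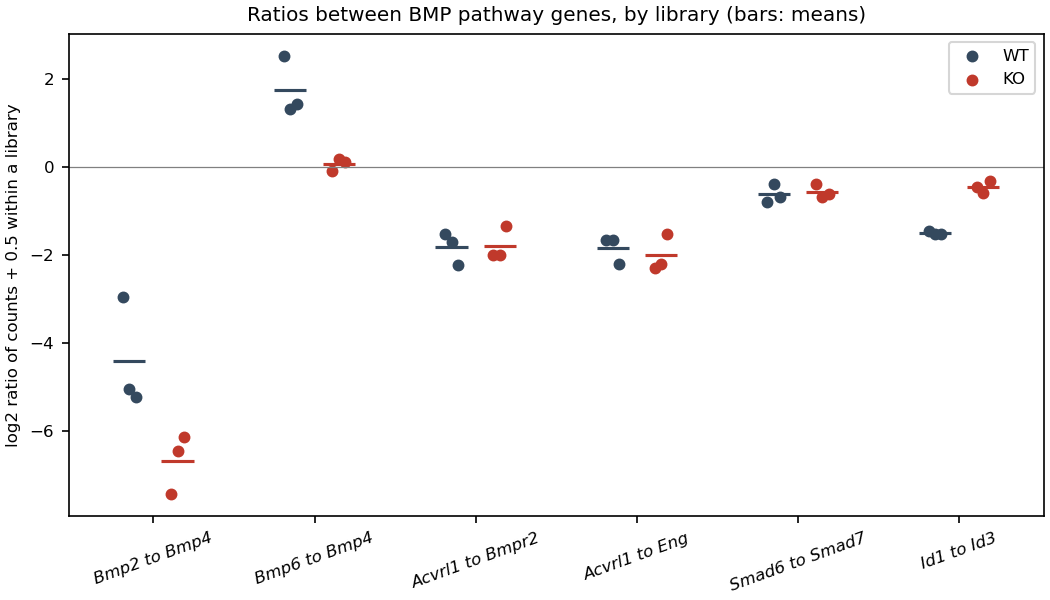
Log2 ratio of counts (plus 0.5) between pairs of pathway genes (vertical axis), for each of the 6 ratios (horizontal axis), with a point per library and a bar at each mean. The ratios of *Bmp2* and *Bmp6* to *Bmp4* are lower in KO and that of *Id1* to *Id3* is higher, while those of *Acvrl1* to *Bmpr2* and *Eng* and of *Smad6* to *Smad7* overlap between the labels.

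In order of level, *Id3* and *Eng* were the highest of the 10 genes under both labels (37.3 ± 3.63 and 36.6 ± 1.17 FPKM in KO, where they overlap, and 42.3 ± 0.21 and 36.3 ± 0.52 FPKM in WT, where they do not; SD, n = 3). In WT *Bmp6* (20.8 ± 1.92 FPKM) came next and then *Id1* (16.5 ± 0.51), and in KO *Id1* (29.9 ± 1.06) stood above *Bmp6* (15.6 ± 1.55). *Bmpr2*, *Smad6* and *Acvrl1* followed at 14.3 ± 0.87, 12.9 ± 1.19 and 12.1 ± 2.38 FPKM in WT, neighbours that do not differ beyond their spread. In KO *Bmp4* (9.23 ± 0.21 FPKM) stood above *Smad7* (6.84 ± 0.77), and in WT below it (4.19 ± 1.90 against 9.02 ± 0.71). These levels are FPKM with the gene lengths used by the authors, so an order between genes of close level depends on those lengths.

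Beyond these genes, 57 other genes of the BMP pathway were read as a list, of which 41 could be tested. In the KO libraries 5 rose and 13 fell past the threshold and 23 did not pass, beside 17.7% of all genes tested called higher and 12.5% called lower, with a median LFC of -0.27 against -0.02 over all genes tested. The rises include *Chrdl2*, which had no WT count and passed the filter on low counts through the KO libraries alone. With fibroblast marker scaling the falls were no longer called and 14 genes were called higher, beside 8660 of all 14084 genes tested. The list then had a median of 0.14, and 32 of the 41 lay below the shifted median of all genes (0.40). This scaling moves all genes by about the same amount, so the place against that median is no separate check. The endothelial, fibroblast and other marker lists given above shifted in the same libraries.

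Among the 5 other receptor genes 1 fell, and among 6 Smad and ubiquitin ligase genes 2 fell, beside the 12.5% called lower over all genes. The receptor gene was *Bmpr1a*, the main type I receptor of BMP2 and BMP4, which went from 22.3 ± 0.32 to 18.0 ± 0.58 FPKM (SD, n = 3, LFC -0.34, adjusted p = 0.00138 from edgeR, 0.07 with fibroblast marker scaling). Among the Smads that carry the signal, *Smad1*, *Smad5* and *Smad4* had LFCs of 0.03, 0.04 and -0.05 with 95% intervals from -0.17 to 0.23, from -0.14 to 0.22 and from -0.21 to 0.11. With fibroblast marker scaling they were at 0.44, 0.45 and 0.36 (adjusted p = 0.0045, 0.0019 and 0.0026), close to the shifted median of all genes, and the sign of *Smad4* turned. *Smurf2*, a ubiquitin ligase that targets Smads and receptors, fell slightly (-0.17, adjusted p = 0.0325). With fibroblast marker scaling it was called higher (0.24, adjusted p = 0.0118) but lay below the shifted median of all genes (0.40). The other fall in this group was *Smad9*, named here after its values were seen because it lies under the level set for naming, with 13, 11 and 19 counts in KO and 35, 32 and 27 in WT (LFC -1.06, adjusted p = 0.0161). Of 5 co-receptor genes only *Neo1* was called, a rise, beside 17.7% of all genes called higher. It encodes neogenin, a receptor for repulsive guidance molecules, and had 39.6, 32.3 and 32.8 FPKM in KO and 24.2, 25.0 and 24.9 FPKM in WT, all KO libraries being higher (LFC 0.47, adjusted p = 0.00271).

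The extracellular modulators, which bind BMPs or related ligands or process them outside the cell, were the role with the most genes tested. Of these 16, 3 rose and 8 fell, beside 17.7% and 12.5% over all genes. *Chrdl2* is among the rises, and having passed the filter on low counts through KO alone, it could be called only as a rise. *Fst* encodes follistatin, which traps activins and some BMPs, and had 14.2, 13.6 and 14.6 FPKM in KO and 5.16, 5.49 and 5.38 FPKM in WT. Its rise had the smallest adjusted p of the list, with no overlap between tight groups (LFC 1.37, SE 0.08, adjusted p = 1.44e-05 from edgeR). *Crim1*, a membrane protein that binds BMPs in the secretory path, rose from 33.4 ± 1.07 to 43.3 ± 5.62 FPKM (LFC 0.34, adjusted p = 0.0168). *Chrdl2*, a chordin-like BMP binder named after its values were seen, had 14, 17 and 23 counts in KO and 0 in every WT library, which makes it at least 6.22-fold higher against a floor of 3 counts per library. The largest called falls were in *Nbl1*, a secreted BMP antagonist (-0.49, adjusted p = 0.00787), *Kcp*, a kielin/chordin-like protein (-0.47, adjusted p = 0.0448), and *Fstl3*, a follistatin-like binder of activins (-0.46, adjusted p = 0.00246), which were -0.08, -0.06 and -0.05 with fibroblast marker scaling and not called there. The antagonist genes *Nog* and *Grem1* had LFCs of -0.35 and -0.41 and were not called (adjusted p = 0.459 and 0.365).

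Of 7 other target genes tested, 1 rose and 1 fell, beside 30.2% of all genes called in either direction. *Msx1*, a homeobox gene induced by BMP in development, rose from 0.337 ± 0.04 to 0.837 ± 0.14 FPKM (SD, n = 3, LFC 1.27, adjusted p = 0.00439 from edgeR), on 17 to 21 counts in WT and 35 to 49 in KO. *Id2* had 20.8, 25.1 and 23.2 FPKM in KO and 33.8, 31.6 and 29.1 FPKM in WT, so that every KO library was lower (LFC -0.49, adjusted p = 0.0059, and -0.08 with fibroblast marker scaling). *Bambi*, *Atoh8* and *Hey1* had LFCs of -0.27, -0.40 and -0.55 and did not pass (adjusted p = 0.257, 0.0846 and 0.275). *Msx2*, the paralog of *Msx1*, had 3, 9 and 6 counts in KO and 13, 13 and 11 in WT and did not pass either (LFC -0.96, adjusted p = 0.113).

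**Figure D5:**
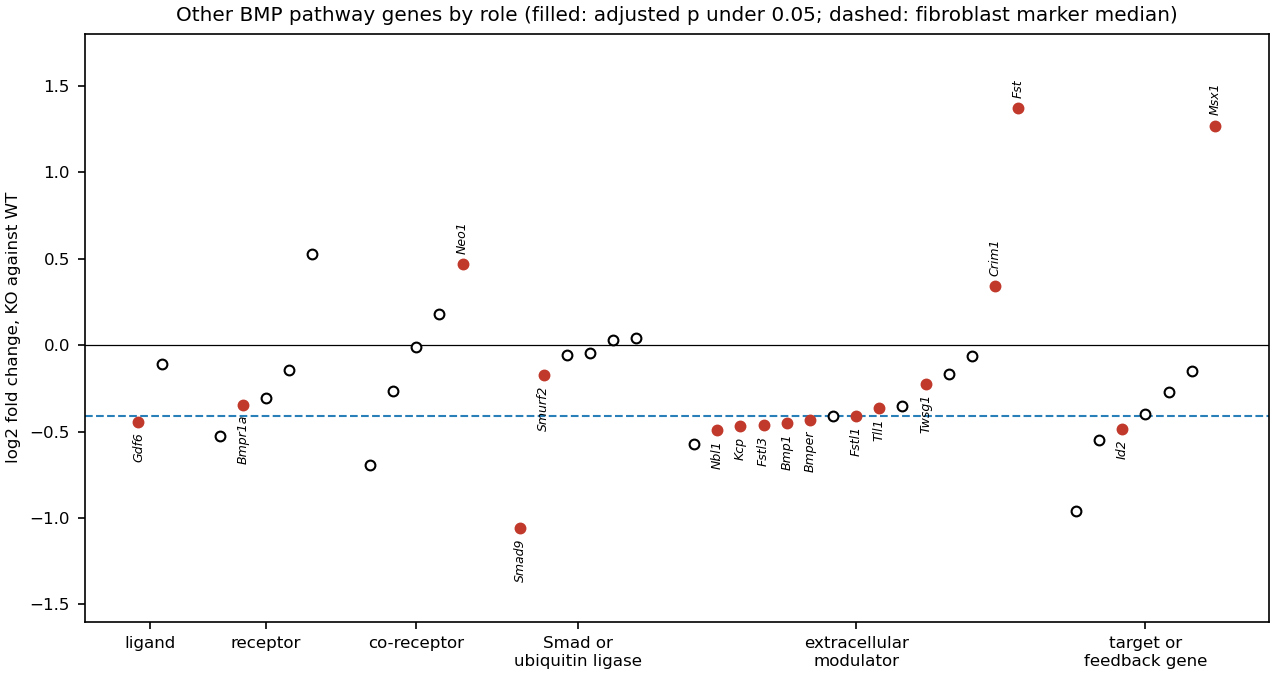
LFC (vertical axis, KO against WT, log2 scale) of 40 of the 41 tested genes of the wider BMP pathway, by role (horizontal axis), with filled and named points past an adjusted p of 0.05. *Fst*, *Msx1*, *Neo1* and *Crim1* stand above 0, most called falls lie near the dashed line at the fibroblast marker median of -0.41, and *Chrdl2*, with no WT count, is left out.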

How the data were processed

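HISAT2 on mm10 was the authors' aligner. The authors deposited, for each library, counts per gene (whole numbers, not normalized) and FPKM values (which they scaled by length and depth). The submitters' processing notes also name GRCm38.p4 and edgeR. The counting tool, annotation release and strand setting are not given in the sources used here.

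Counts of the 3 KO and 3 WT libraries went through filterByExpr (14084 of 20854 detected genes kept), TMM, glmQLFit and glmQLFTest of edgeR 4.0.16 (R 4.3.3), without covariates, and p-values were adjusted by Benjamini-Hochberg over all kept genes. A count of 0 allows up to 3 counts, at most 0.245 CPM, and such floors cover counting error only. Intervals are 95%. Replicates of a label differed beyond sampling noise (22.4% to 32.2% of genes in each pair at an unadjusted level of 0.05), so none was counted as a duplicate.

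The members, lists, tests and alternatives were chosen with earlier results of these data known. The rule for named genes took the 10 genes, *Kdm5b* and, per role of the wider list, up to 3 called rises and 3 called falls above a mean FPKM of 0.5, and genes not called or below that level were named after their values were seen. Start regions came from RefSeq on GRCm38.p6. Alternatives were other filters, library size, upper quartile, fibroblast marker scaling (the median ratio of 12 markers set to 1), DESeq2 1.42.0, limma 3.58.1 on log2(FPKM + 1) or log2(FPKM + 0.1), a replicate block, dropping each library in turn, and a fold above 2. Tests were first tried on simulated data. Figures used matplotlib 3.10.9.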

Additional observations from a re-analysis of the deposited data

How the results depend on the processing

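With fibroblast marker scaling the counts of BMP pathway members called were 4 higher and 0 lower (0 lower also at an unadjusted p under 0.05), those of the wider list 14 and 0 (1 lower unadjusted) and those of all genes 8660 and 40. The values that turned were 0.18 for *Bmpr2*, 0.25 for *Acvrl1*, 0.39 for *Eng*, 0.032 for *Smad6* and 0.20 for *Id3*, which follows from the shift of all genes by this scaling. DESeq2 was run with its own scaling and not that of the markers. It called 4 members, 10 genes of the wider list and 1416 of all genes lower at an adjusted p under 0.05. Requiring a fold above 2 left 1 and 0 members, 3 and 1 genes of the wider list, and 844 and 38 of all genes. With limma on genes of mean FPKM of at least 1, which tests fewer genes, 3 of the wider list were higher, beside 2241 of all genes. *Eng* was also above 0 by library size (0.014) and with limma (0.013 at pseudocount 1 with or without the FPKM filter, and 0.014 at 0.1). Leaving out a library gave 1 to 2 members higher and 2 to 4 lower, where *Bmp4* was lost without KO replicate 1, 2 or 3, *Bmpr2* without KO replicate 1 or 2 or WT replicate 2 or 3, and *Smad6* without KO replicate 3 or WT replicate 2 or 3, while *Id3* was gained without KO replicate 2. Over all genes, leaving out a library gave 2013 to 2508 higher and 1131 (without KO replicate 3) to 1614 lower. The LFC then ran from -0.47 to 0.018 for *Acvrl1* and from -0.031 to 0.015 for *Eng*, and the log2 ratio from -0.18 to 0.19 for *Acvrl1* to *Bmpr2* and from -0.029 to 0.18 for *Smad6* to *Smad7*. The cause was not tested.

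Same-numbered KO and WT libraries did not deviate together (correlations 0.02, 0.02 and 0.03), so the numbers were not taken to pair them. With the replicate block 2 members were higher and 4 lower, and 2318 and 1592 of all genes. Depth limits *Bmp2* and the other genes that did not pass the filter.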
